A study of Arabidopsis thaliana with 16 samples.

Results

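AT4G16410, AT3G52070, AT1G62780 and AT3G56250 are protein-coding Arabidopsis thaliana genes that were among the most reduced in the gun1 mutant and about which the gene tables used here say little. All 4 have no symbol in RefSeq beyond the locus name, and no function is assigned to them here. They were taken by locus, each through the 1 probe whose platform entry lists that gene alone, which gave 4 probes of 3439 in the table and of 692 that name a single gene (691 genes). No probe listed any of them together with other genes, so each gene rests on 1 probe. The genes were chosen by their measured level, which was lower in gun1 than in wild type. The differences between the genotypes are therefore described with no p-value of their own, and nothing is supported with them.

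Expression arrays were run with total RNA of 8 wild type (WT) samples and 8 samples of the gun1-1 mutant, both of ecotype Columbia 0, and the samples of each genotype carry the numbers 1 to 8. No treatment, tissue, age or growth condition is given in the sources used here, and the mutant is represented by a single allele, labelled as a plastid signaling defect. The labels do not say whether the 8 samples of a genotype came from separate plants, so the spread between them may be technical. In bulk RNA, fewer cells of a type and less RNA per cell cannot be told apart.

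Plastids report their state to the nucleus, which encodes most of their proteins, by a set of routes known as retrograde signaling. GUN1 is a pentatricopeptide repeat protein of the plastid that acts in these routes. When plastid development is blocked, wild type seedlings shut down nuclear genes for photosynthesis, whereas gun (genomes uncoupled) mutants keep them active. GUN1 has no probe of its own among those that name a single gene, so the genotype labels were not checked on the mutated gene.

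The deposited intensities of every sample ran from 0 to 100, and how they were made is not stated. Sample medians lay between 0.130 and 0.157 in WT and between 0.216 and 0.259 in gun1. The samples were therefore quantile normalized, and values below a floor of 0.0313 were set to it. The 64 values of the 4 genes held 0 deposited zeros. A principal component with 13.5% of the variance separated the 4 samples numbered 7 and 8 from the rest, and each difference is given with and without them.

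The 4 genes fell into a bright and a dim pair. AT4G16410 and AT3G52070 gave signals in the brightest of 4 equal classes of the 3419 tested probes, ordered by their mean over all 16 samples, and AT1G62780 and AT3G56250 in class 2 counted from the dimmest. A probe's brightness also depends on the probe, so these classes do not rank the genes by transcript number. They describe how far a signal stood above the floor over both genotypes together, and a fall in gun1 lowers that mean. In WT alone AT1G62780 and AT3G56250 had median percentiles of 56.3 and 64.3 among the probes of a sample. The pair is thus called dim for its gun1 samples above all. In all 8 numbers each of the 4 genes was lower in gun1 than in the WT sample of the same number. This follows from the choice of the genes, the share of all probes for which it holds was not counted, and nothing is read from it.

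AT4G16410 had a normalized intensity of 2.43, 2.17, 2.19, 2.19, 2.12, 2.26, 1.70 and 1.88 in WT samples 1 to 8. In gun1 the values were 0.562, 0.348, 0.574, 0.463, 0.461, 0.590, 0.356 and 0.427. The lowest WT sample, number 7, was still 2.88-fold above the highest gun1 sample, number 6, so the groups stood well apart. Mean intensities of 2.12 ± 0.227 in WT and of 0.472 ± 0.0953 in the mutant (SD, n = 8 each) left 22.3% of the WT level in gun1. On the log2 scale the difference gun1 minus WT was -2.18 (SE 0.14), a geometric mean 4.54-fold higher in WT, and -2.18 without the numbers 7 and 8. By number it ranged from -2.64 to -1.93. Each SE given for a difference comes from a fit that took the 16 samples as independent and left the numbers out.

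AT3G52070 gave the brightest signal of the 4. Its normalized intensity in WT samples 1 to 8 was 3.16, 3.29, 4.02, 4.05, 3.88, 3.60, 2.9998 and 2.61. In gun1 it was 0.937, 0.937, 0.767, 0.773, 1.24, 1.05, 0.875 and 0.776. The groups again did not overlap, with the lowest WT sample 2.12-fold above the highest gun1 sample. Mean intensities of 3.45 ± 0.521 and 0.918 ± 0.162 (SD, n = 8 each) left 26.6% of the WT level in gun1. The log2 difference was -1.91 (SE 0.14), or -1.96 without the numbers 7 and 8. The reduction was deepest in the numbers 3 and 4, where WT was high and gun1 low (log2 -2.39 in both), and the other 6 numbers lay between -1.81 and -1.65.

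**Figure D1:**
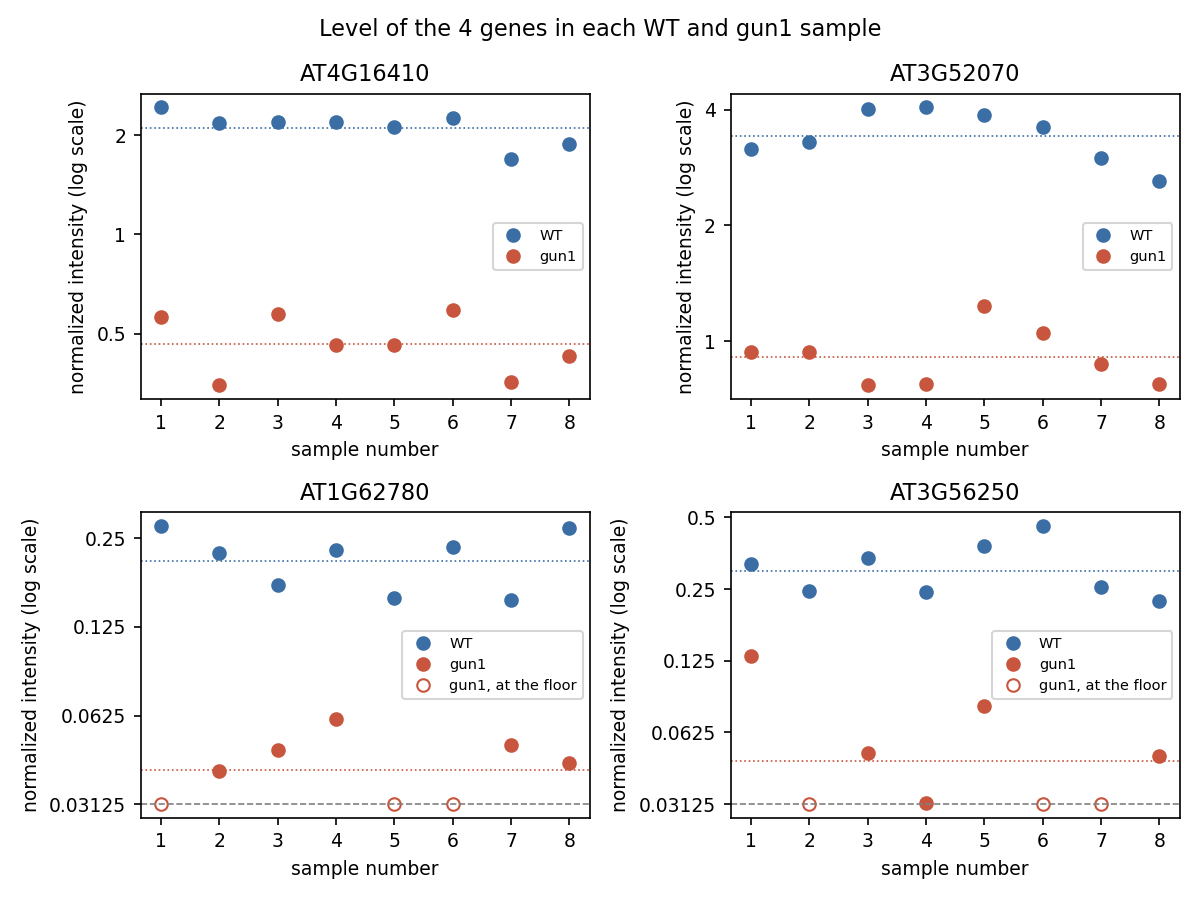
Normalized intensity (log scale) of each gene by sample number, WT in blue and gun1 in red. Dotted lines are the geometric means of the 8 samples, the dashed line is the floor of 0.0313, and open points lie at it. In all 4 panels every WT point lies above every gun1 point, and 3 gun1 points are at the floor for both AT1G62780 and AT3G56250.

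The dim pair reached the lower end of the measurable range in gun1. AT1G62780 had a normalized intensity of 0.276, 0.222, 0.174, 0.229, 0.157, 0.234, 0.154 and 0.272 in WT samples 1 to 8. In gun1, the samples 1, 5 and 6 were at the floor of 0.0313, and the samples 2, 3, 4, 7 and 8 read 0.0404, 0.0478, 0.0610, 0.0497 and 0.0431. All gun1 values thus lay below the lowest WT value, by 2.53-fold or more, but in the deposited values the lowest WT sample was just 1.17-fold above the highest gun1 sample. The mean intensity of WT, 0.215 ± 0.0483, compared with 0.0420 ± 0.0107 in the mutant (SD, n = 8 each), and the log2 difference was -2.36 (SE 0.18), or -2.43 without the numbers 7 and 8. That value depended on the floor: it was -1.21 with a floor at the 20th percentile of positive values and -2.74 with one at the 1st percentile.

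AT3G56250 varied most between the gun1 samples. In WT samples 1 to 8 it read 0.319, 0.244, 0.339, 0.243, 0.380, 0.460, 0.254 and 0.223. In gun1 it was at the floor in the samples 2, 6 and 7, just above it in sample 4 with 0.0315, at 0.0511, 0.0806 and 0.0499 in the samples 3, 5 and 8, and highest in sample 1 with 0.131. The normalized groups did not overlap, with the lowest WT sample 1.71-fold above the highest gun1 sample. In the deposited values they did, since gun1 sample 1 read 0.189 and WT sample 8 read 0.183. The log2 difference was -2.65 (SE 0.29), -2.67 without the numbers 7 and 8 and -2.86 without gun1 sample 1. A floor at the 20th percentile gave -1.65 and one at the 1st percentile -3.23, and by number it ranged from -3.88 to -1.29.

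In units of normalized intensity the bright pair had the larger differences. On the log2 scale the order of the 4 changed with the floor and the scaling. The mean of AT3G52070 dropped by 2.53 and that of AT4G16410 dropped by 1.64, whereas that of AT3G56250 dropped by 0.253 and that of AT1G62780 dropped by 0.173. Among 3419 probes ordered from the deepest drop in intensity, AT3G52070 stood at place 23, AT4G16410 at 35, AT3G56250 at 208 and AT1G62780 at 320. In the order of log2 differences AT4G16410 stood at place 13 and AT3G52070 at 23, while the dim pair has no fixed place, since 3 gun1 samples of both genes were set to the floor.

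Quantile normalization sets a value by its place among all probes of the same sample, and these places are the data behind the normalized values. AT4G16410 lay between the percentiles 93.5 and 95.5 in the WT samples and between 70.7 and 82.8 in the gun1 samples. AT3G52070 moved from between 95.8 and 97.2 to between 86.8 and 91.3, and so stayed among the brighter probes of the mutant. AT1G62780 ranged from 42.4 to 63.2 in WT, and its gun1 samples from 9.01 to 19.3. AT3G56250 lay between 56.0 and 77.8 in WT, with gun1 samples between 8.11 and 36.6. Sample 1 of AT3G56250 in gun1 lay well above the median of 14.9 of its group.

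**Figure D2:**
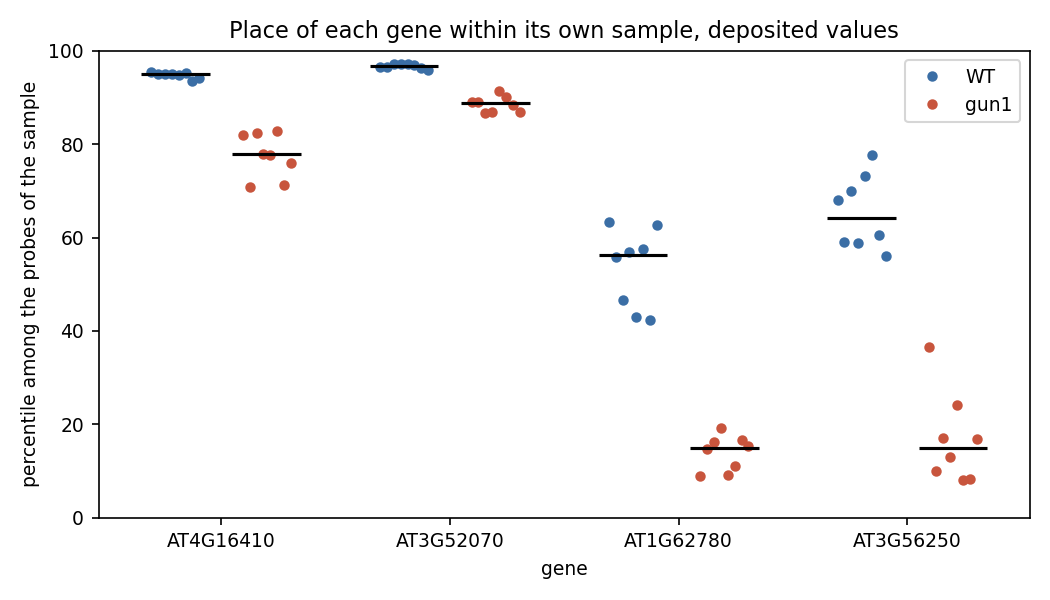
Percentile of each gene among the 3439 probes of a sample, from the deposited values, one point per sample (WT blue, gun1 red, 8 each) with the group median as a black line. AT3G52070 stayed at or above 86.8 in gun1, while AT1G62780 and AT3G56250 dropped to medians of 15.03 and 14.9.

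All 4 genes were called lower in gun1 by limma at an adjusted p threshold of 0.05, as were 15.2% of all 3419 tested probes and 18.1% of the 689 tested probes that name a single gene. Samples of gun1 lay wholly below those of WT for 3.33% of the tested probes in normalized values and for 1.78% in deposited values; of the 4 genes this was so for 4 and 3. Because this contrast chose the genes, nothing is read from either count. Among the 689 single-gene probes, ordered from the most negative log2 difference, AT4G16410 held place 3 and AT3G52070 place 6. AT3G56250 and AT1G62780 came before them at the floor of 0.0313, and would have come after both with the floor at the 20th percentile (-1.65 and -1.21). The genes between and after the 4 were FBL17, an F-box gene, at -2.10, AT1G76450 at -1.97 and AT4G33760 at -1.90. Of the gun1 samples, 4 were at the floor for FBL17, 3 for AT1G76450 and 0 for AT4G33760. With the floor of 0.0313 the 4 do not form an unbroken run in this order. The places, those of the bright pair included, depend on where the floor is set.

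Differences of 2-fold or more towards lower levels were less frequent in the class of the bright pair than in that of the dim pair. In the brightest class, 31 of 855 probes (3.63%) had a log2 difference of -1 or less, among them AT4G16410 and AT3G52070 at ranks 5 and 9. In the class of the dim pair, 107 of 855 probes (12.5%) did, AT3G56250 and AT1G62780 included. Samples of one genotype also scattered more there: the median SD of log2 values within WT was 0.24 in the brightest class and 0.70 in that of the dim pair. The SDs of AT1G62780 and AT3G56250 lay at the percentiles 7.60 and 11.8 of that class in WT, and at 9.24 and 60.7 in gun1. The classes go by the mean over both genotypes, which a fall in gun1 lowers. In WT alone the mean intensities of the pair, 0.215 and 0.308, lay within the range of class 3 (0.174 to 0.371). The median SD in WT there was 0.38, against 0.34 and 0.37 for the pair. In gun1 both genes had 3 samples set to the floor. Nothing is therefore read from these percentiles.

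**Figure D3:**
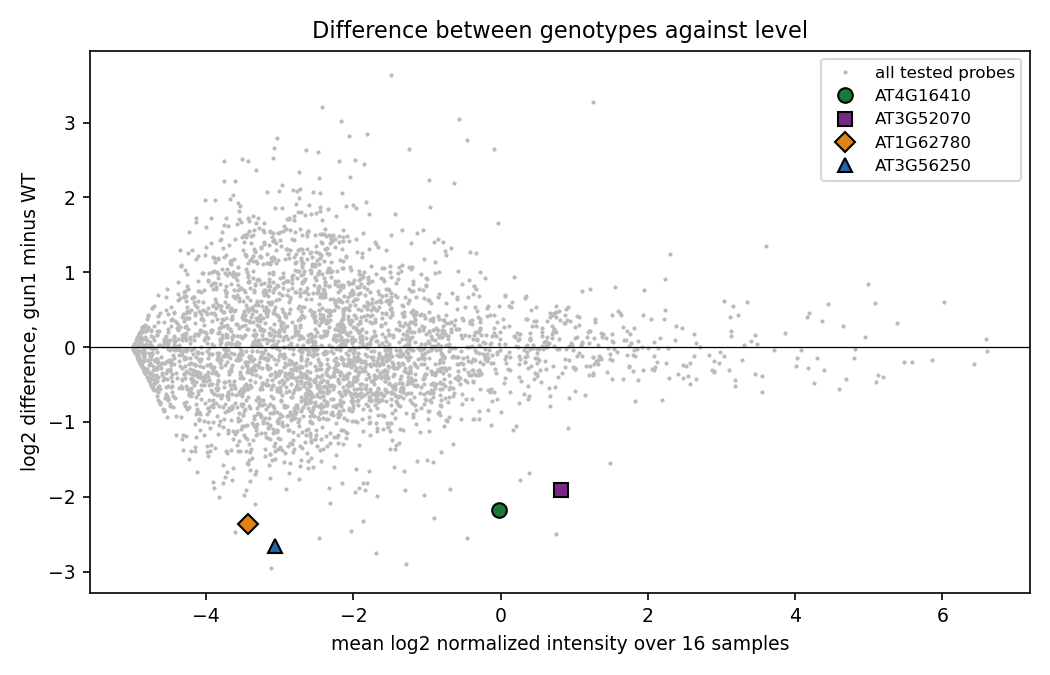
Log2 difference gun1 minus WT against the mean log2 normalized intensity over 16 samples, for all 3419 tested probes in grey and the 4 genes as coloured symbols. AT4G16410 (-2.18) and AT3G52070 (-1.91) lie with few other probes below the narrower part of the grey points, and AT1G62780 (-2.36) and AT3G56250 (-2.65) at the lower edge of the wide part.

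Within a genotype, AT4G16410 and AT3G52070 had an SD of 0.16 and 0.23 on the log2 scale in WT and of 0.30 and 0.24 in gun1. AT1G62780 had 0.34 and 0.36, and the gun1 value is held down by the 3 samples set to the floor. AT3G56250 had 0.37 in WT and 0.77 in gun1, the widest spread of the 4. Relative to the mean of the deposited intensity, the spread in gun1 was 13.4% for AT4G16410, 14.5% for AT3G52070, 48.2% for AT1G62780 and 85.5% for AT3G56250. The measurements of the bright pair were the more repeatable in both genotypes.

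The way the arrays were scaled changed the size of the differences, and never their sign. The sign is bound to the choice of the genes, which were taken for their fall in these arrays, so nothing is read from it. Across 30 alternatives for each gene the log2 difference stayed between -2.84 and -2.07 for AT4G16410, between -2.68 and -1.74 for AT3G52070, between -2.83 and -1.21 for AT1G62780 and between -3.23 and -1.65 for AT3G56250. Several of the alternatives, such as blocks and averaging of consecutive numbers, cannot move the estimate when the groups are of equal size. Setting all samples to a common median gave the lowest values of the bright pair (-2.84 and -2.68), with a median over all probes of -0.18. In the deposited values without scaling, where the median over all probes was 0.41 and most probes read higher in gun1, the 4 genes were still lower, at -2.11, -1.95, -1.70 and -2.12 in the order AT4G16410, AT3G52070, AT1G62780 and AT3G56250. A floor touched the dim pair alone, and the higher it was set, the smaller their differences became.

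**Figure D4:**
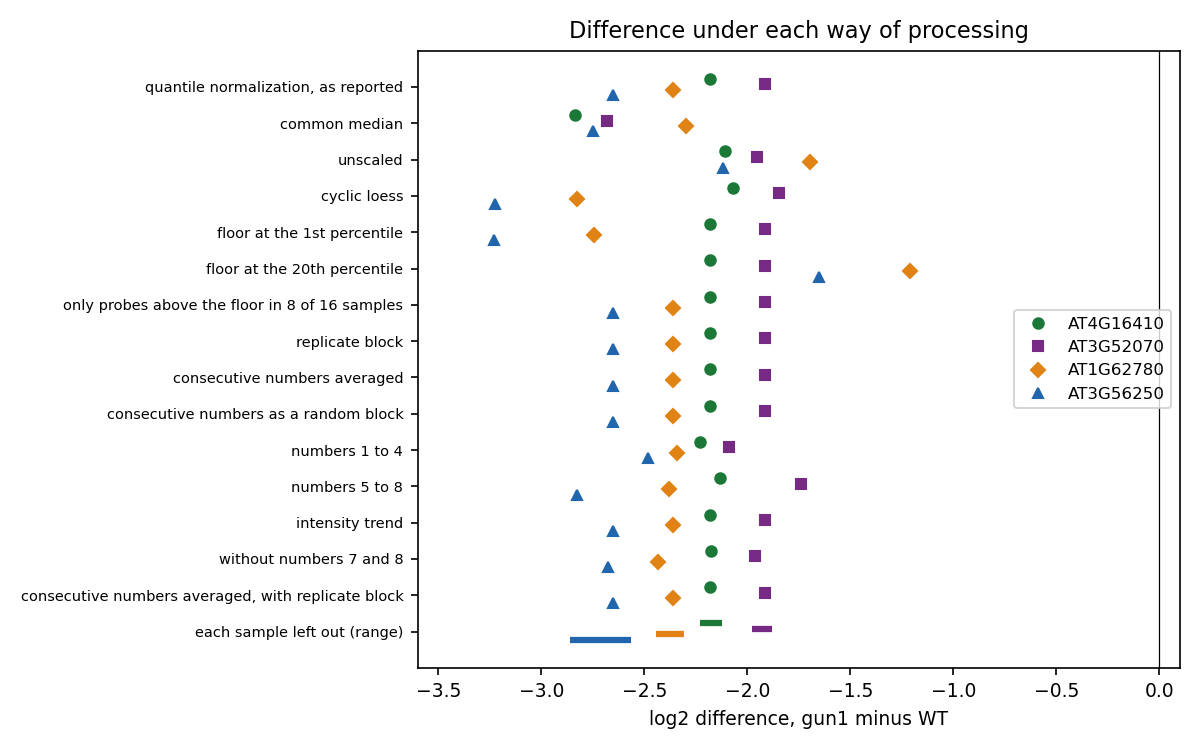
Log2 difference gun1 minus WT of each gene under every way of processing, one row per setting; bars in the bottom row span the values with each of the 16 samples left out in turn. All symbols lie below 0, and AT1G62780 and AT3G56250 move with the floor (-1.21 and -1.65 at the 20th percentile) while AT4G16410 and AT3G52070 do not.

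Whether a gene that was high in a WT sample was also high in the gun1 sample of the same number does not depend on how the genes were chosen, so it was tested. Pearson's r over the 8 numbers was 0.676 for AT4G16410 (exact permutation p = 0.0598, adjusted over the 4 genes 0.239; Spearman's rho 0.766, p = 0.0323, adjusted 0.129). The numbers 7 and 8 were low in WT and low or middling in gun1, and without these, the 2 farthest from the WT median, r was 0.511. Number 2 departed from the rest, with an ordinary WT value and the lowest gun1 value. With number 2 left out, r was 0.896 over 7 numbers (exact permutation, adjusted p = 0.0143). Leaving out any other single number gave an adjusted p between 0.210 and 0.889 (exact permutation). Number 2 is singled out because it departed from the rest, so no relation is read from its omission.

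For the other 3 genes no relation by number was detected either. AT3G52070 had r = 0.190 (exact permutation p = 0.649, rho -0.156), with the numbers 3 and 4 highest in WT and lowest in gun1, and r = 0.164 without the 2 farthest. AT1G62780 had r = -0.164 (exact permutation p = 0.685, rho -0.342) and -0.423 without the 2 farthest, and AT3G56250 had r = 0.257 (exact permutation p = 0.541, rho 0.146) and 0.616. The adjusted p of r was 0.685 for all 3 genes. Values tied at the floor limit what the dim pair can show. Samples with consecutive numbers resembled each other for AT3G52070, where 2 such samples of a genotype differed by 0.10 ± 0.09 on the log2 scale (mean and SD of 8 pairs) against 0.31 ± 0.18 for the 48 other pairs. The same means were 0.25 ± 0.21 and 0.27 ± 0.21 for AT4G16410 and 0.38 ± 0.24 and 0.42 ± 0.28 for AT1G62780. For AT3G56250 consecutive samples differed by 0.77 ± 0.64 and the others by 0.63 ± 0.55. If consecutive numbers share a preparation, the 8 numbers are not independent and these p-values are too small. The SEs of the differences were not adjusted for such sharing either.

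**Figure D5:**
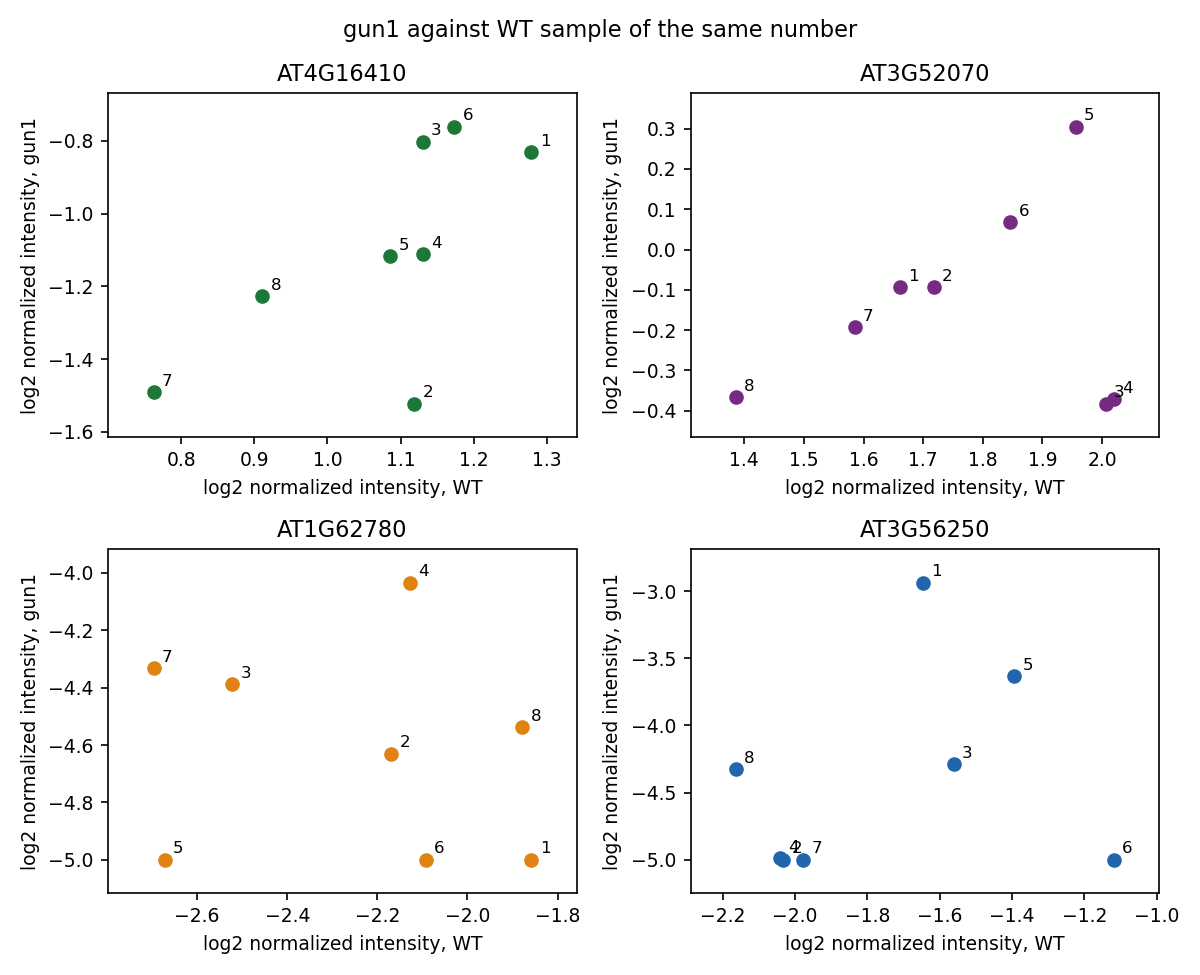
Log2 normalized intensity in gun1 against that in the WT sample of the same number, one point per number with the number beside it. For AT4G16410 number 2 lies below the rising points (r = 0.676 over all 8), for AT3G52070 the numbers 3 and 4 lie at the lower right (r = 0.190), and the dim pair has points in a row at the floor.

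No variation shared by the 4 genes was detected among the samples of one genotype. Of the 6 pairs of genes, 4 had a positive r within WT and 3 within gun1, and of these 12 correlations over 8 samples none passed at an adjusted p of 0.05 (exact permutation, 1 with an unadjusted p under 0.05; 0 passed by Spearman's rho). The strongest was between AT3G52070 and AT1G62780 in gun1, at r = -0.799 (exact permutation p = 0.0158, adjusted 0.189; rho -0.834), where the samples 5 and 6 had the highest AT3G52070 values and AT1G62780 at the floor, and r was -0.799 without the 2 farthest samples. In WT the same genes had r = -0.392 (exact permutation, adjusted p = 0.466). The bright pair had r = 0.520 in WT and 0.0708 in gun1 (exact permutation, adjusted p = 0.466 and 0.875), and the WT value turned to -0.653 without the numbers 7 and 8, which were low for both genes. The dim pair had r = -0.199 in WT and -0.561 in gun1 (exact permutation, adjusted p = 0.694 and 0.466).

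The probes that followed the ups and downs of each gene most closely were picked out of all single-gene probes above the floor in 12 of 16 samples. With the mean of each genotype subtracted, the single-gene probes most like AT4G16410 over the 16 samples were AT1G02020 (r = 0.756), AT1G50020 (0.739) and AT1G24530 (0.724). For AT3G52070 they were AT1G42960 (0.778), AT1G01730 (0.754) and AT5G49800 (0.739). AT1G62780 was most like AT4G37420 (0.649), AT1G16080 (0.647) and AT4G27390 (0.640), and AT3G56250 most like AT5G22340 (0.562), AT1G72890 (0.555) and AT1G29700 (0.553). They are the top 3 of 571 probes for each gene, whose 95th percentiles of r were 0.556, 0.568, 0.464 and 0.405, and all share the arrays, so the values are a description. With a common median instead, 6 of these 12 stayed among the top 3.

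Of these 12 genes, 11 had a lower mean log2 level in gun1. How many of the 571 compared probes did so was not counted. The median log2 difference of the 689 tested single-gene probes was -0.12, and nothing is read from the count. Some differences were close to their SE, as for AT1G42960 (-0.41, SE 0.41), AT1G01730 (-0.30, SE 0.24) and AT1G29700 (-0.23, SE 0.15). AT5G49800 lay at 0.155 ± 0.0599 in gun1 against 0.363 ± 0.0774 in WT (SD, n = 8 each, log2 -1.29, SE 0.23). AT1G02020 was the exception, with 0.375 ± 0.134 in gun1 and 0.242 ± 0.0574 in WT (SD, n = 8 each; log2 0.58, SE 0.23). AT1G01730 lay at 1.06 ± 0.418 in gun1 and 1.25 ± 0.280 in WT (SD, n = 8 each).

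Having no symbol in RefSeq was the common state of the genes measured. Of the 592 other tested single-gene probes without one, 109 were called lower in gun1 (18.4%) and 111 higher, with a median log2 difference of -0.14. Of 91 with a symbol, 12 were called lower (13.2%) and 12 higher, with a median of -0.04. Over all tested probes 15.2% were called lower and 16.6% higher, and the median was -0.05. Lists by the words uncharacterized, membrane and tRNA in symbols and synonyms matched 0 measured genes, and phosphatase matched 1, SBPASE, the sedoheptulose-bisphosphatase of the Calvin cycle, called lower at a log2 difference of -0.51 (limma, adjusted p = 0.0138).

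By the order of protein-coding genes in RefSeq (assembly TAIR10.1), of the 5 neighbours on each side of the 4 genes, 2 of 40 were measured by a probe of their own. AT1G62760, near AT1G62780, was at the floor in 5 WT and 4 gun1 samples, too dim for its difference to be read. AT3G56290, near AT3G56250, had a log2 difference of -0.65. Its SE and call are not given here, and 15.2% of all tested probes were called lower, so nothing is read from that value. In the same annotation AT4G16410 overlaps AT4G16400, AT3G52070 overlaps AT3G52075 and the long noncoding AT3G52072, and AT3G56250 overlaps AT3G56260, whereas AT1G62780 overlaps 0 genes. Where the probes lie in these genes and which strand they read is not given in the sources used here, so for the 3 overlapping genes the signal of the partner cannot be told apart.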

How the data were processed

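The deposited intensity values, 1 for each of 3439 probes and 16 samples, are on a linear scale from 0 to 100; the labels state nothing on their background correction or normalization. Groups were taken from the sample titles. Values were quantile normalized, values below the 5th percentile of positive values and values deposited as 0 were set to that floor (0.0313), and values were put on the log2 scale. Genotypes were compared, as gun1 minus WT, with limma 3.58.1 in R 4.3.3 (lmFit, eBayes, two-sided, Benjamini-Hochberg, threshold 0.05), 8 against 8 without covariates, on 3419 probes, after 20 constant ones were left out. The number of arrays limits the precision.

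Gene names came from the platform's annotation table, in which 692 probes list 1 gene, 870 several and 1877 none, and 690 of the 692 matched RefSeq (TAIR10.1). Correlations used exact permutation of pairings, two-sided, adjusted over the 4 genes or the 12 pairs. The most like genes were taken among single-gene probes above the floor in 12 of 16 samples. The genes, lists and tests were chosen with earlier results of these data known; the list of genes without a symbol was added after the annotation was seen. The procedures were tested on simulated data.

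The numbers pair the samples: deviations of same-numbered samples correlated across probes in all 8 pairs, with r from 0.143 to 0.421 (mean 0.239). The mean for different numbers, -0.0338, is no independent baseline, since deviations from a genotype mean cancel out over the numbers. All 8 WT samples and all 8 gun1 samples correlated best with their own number in the other genotype. The pairing comes from the values. Alternatives covered scaling, floor, dim probes, the replicate number, consecutive numbers, the variance model and left-out samples. Figures were drawn with matplotlib 3.10.9.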

Additional observations from a re-analysis of the deposited data

Results flagged for a closer look

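With a test for a value far from the rest of a group of 8, applied to the intensities, the percentiles and the differences by number of the 4 genes, 1 of 20 groups stood out, about as many as chance gives. It was the log2 difference of AT4G16410 at number 2, at -2.64 against a median of -2.14 in the other numbers, with gun1 sample 2 the lowest of its group.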

How the results depend on the processing

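Of the 30 alternatives, the blocks, the averaging of consecutive numbers, the variance model and the filter on dim probes cannot change an estimate. The genes were also chosen for their fall on this contrast, so nothing is read from a kept sign. The difference of each of the 4 genes kept its sign under all of them. It moved by more than the spread between samples with a common median for AT4G16410 (-2.84) and AT3G52070 (-2.68); for AT1G62780 unscaled (-1.70), under cyclic loess (-2.83) and with the floor at the 1st (-2.74) and 20th percentile (-1.21); and for AT3G56250 with the floor at the 20th percentile (-1.65). With single samples left out it lay between -2.23 and -2.12 for AT4G16410, -1.98 and -1.88 for AT3G52070, -2.45 and -2.31 for AT1G62780, and -2.86 and -2.57 for AT3G56250. The 1088 called probes became 592 with consecutive numbers averaged, 583 in the numbers 1 to 4 and 324 in the numbers 5 to 8, which have fewer samples in the fit, 733 when all 16 samples stayed and each pair of consecutive numbers was a random block, and 996 to 1065 with single samples left out. Of the calls, 52.1% were higher in gun1, against 34.2% with a common median and 85.5% unscaled. The replicate number as a block gave 1293 calls and changed no difference of the 4 genes. The correlation by number of AT4G16410 lay between 0.506 and 0.896 with single numbers left out. With the floor at the 20th percentile AT1G62780 is constant in gun1, so its correlations there could not be computed. Leaving out the numbers 7 and 8 was chosen after seeing the data, as was averaging combined with a block.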
